A study of Rattus norvegicus with 64 samples.

Results

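The 9 genes described here mark GABAergic interneurons, the inhibitory neurons of the cortex, in the entorhinal cortex of the postnatal rat. They were chosen by name as rows of the gene count tables, and all 9 were found among the 17260 genes counted. Gad1 and Gad2 encode the glutamate decarboxylases that make GABA, and Slc32a1 encodes the transporter that loads it into synaptic vesicles. Pvalb, Sst, Vip, Calb2 and Npy encode parvalbumin, somatostatin, vasoactive intestinal peptide, calretinin and neuropeptide Y, and Lhx6 encodes a transcription factor of interneurons born in the medial ganglionic eminence. Total RNA depleted of ribosomal RNA was sequenced from tissue of Long Evans rats, and the labels name no treatment or genetic alteration. The 64 libraries covered 2 regions, the medial (MEC) and lateral (LEC) entorhinal cortex, and 2 dissected parts of each, layer II (LII) and the deep layers (LDeep), which the study's methods define for MEC as the layers below layer II. The ages were postnatal days 2, 9, 23 and 45 (P2, P9, P23 and P45), with 5, 4, 3 and 4 replicates in each group of that age and 16 groups in all. The tissue was dissected by hand from both hemispheres, so each library mixes interneurons with all other cells of the piece. In such bulk tissue, fewer cells of a type and less RNA per cell cannot be told apart.

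Cortical GABAergic interneurons are a minority of the neurons and are born outside the cortex, in the ganglionic eminences. They settle in the cortex around birth and acquire their adult properties over the first postnatal weeks. Parvalbumin cells are fast-spiking and contact the cell bodies and axons of excitatory cells, somatostatin cells contact dendrites, and vasoactive intestinal peptide cells mostly contact other interneurons. Parvalbumin and somatostatin cells come from the medial ganglionic eminence and carry Lhx6, while vasoactive intestinal peptide cells and many calretinin cells come from the caudal one. The markers are not exclusive, since calretinin also occurs in Cajal-Retzius cells and in some excitatory neurons.

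The promoters of 3 members are shown because these genes carried the largest age difference (Pvalb) and layer differences of opposite direction (Sst and Vip). Each runs 5′ to 3′ from 250 bases before to 50 bases after the annotated start and comes from RefSeq on GRCr8, a later build than the one used for counting. Capitals mark matches on either strand to TATAAA, the core of a TATA box, or to TGACGTCA, the palindromic cAMP response element, and no match overlapped another.
Pvalb, chr7:111666240-111666539, minus strand: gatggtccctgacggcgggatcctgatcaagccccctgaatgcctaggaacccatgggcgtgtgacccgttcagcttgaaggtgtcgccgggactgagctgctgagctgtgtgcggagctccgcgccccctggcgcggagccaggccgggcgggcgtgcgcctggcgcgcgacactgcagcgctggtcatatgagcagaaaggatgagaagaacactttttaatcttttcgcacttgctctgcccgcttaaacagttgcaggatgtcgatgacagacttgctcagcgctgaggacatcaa
Sst, chr11:90461296-90461595, plus strand: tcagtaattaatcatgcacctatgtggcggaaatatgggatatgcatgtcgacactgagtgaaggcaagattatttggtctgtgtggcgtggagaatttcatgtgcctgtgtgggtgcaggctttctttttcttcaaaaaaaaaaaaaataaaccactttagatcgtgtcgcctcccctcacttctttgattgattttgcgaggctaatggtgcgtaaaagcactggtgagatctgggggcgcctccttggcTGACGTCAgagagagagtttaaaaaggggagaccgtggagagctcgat
Vip, chr1:44470230-44470529, plus strand: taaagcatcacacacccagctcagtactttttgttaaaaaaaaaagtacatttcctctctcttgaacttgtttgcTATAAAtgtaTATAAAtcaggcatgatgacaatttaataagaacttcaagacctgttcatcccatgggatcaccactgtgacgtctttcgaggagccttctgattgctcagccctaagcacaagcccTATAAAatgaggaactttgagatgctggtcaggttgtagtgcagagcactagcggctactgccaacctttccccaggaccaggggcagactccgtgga
A promoter was listed for 8 of the 9 members. Among these, TGACGTCA occurred in Sst alone, against 1.83% of the 33469 listed rat promoters of the same length. TATAAA occurred in Vip at 3 places and in Gad1 at 1, against 14.2% of all promoters. The match to TGACGTCA in Sst began after the annotated start. Those to TATAAA began 175, 165 and 48 bases before it in Vip and 213 bases before it in Gad1. Whether any match acts in these genes was not tested. AAGGTCA, a nuclear receptor half-site that was also searched on both strands, occurred in none of the 8 and in 4.61% of all promoters. The GC content was 45.7% for Sst and 44% for Vip, and between 60.7% (Pvalb) and 73.7% (Slc32a1) for the others.

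On Rn6, the build used for counting, Gad1 lies on chromosome 3 from 56861440 to 56902139 (17 exons, plus strand), Slc32a1 on chromosome 3 from 155103150 to 155107815 (3 exons, plus strand) and Lhx6 on chromosome 3 from 15409760 to 15433315 (11 exons, minus strand). Gad2 lies on chromosome 17 from 89171576 to 89234768 (16 exons, plus strand), Pvalb on chromosome 7 from 119429018 to 119441487 (4 exons, minus strand) and Sst on chromosome 11 from 80358262 to 80359447 (2 exons, plus strand). Vip lies on chromosome 1 from 42169501 to 42177581 (7 exons, plus strand) and Calb2 on chromosome 19 from 41482743 to 41509617 (11 exons, plus strand). Npy was annotated as 2 copies of equal exon lengths on chromosome 4, from 79557856 to 79565057 and from 79574010 to 79581210. Read pairs that aligned to more than one place were not counted, and Npy had between 0 and 16 counts per library and 311 in all. Its levels are therefore uncertain and are given with that limit.

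The counted read pairs per library ranged from 3894334 to 11439143 (median 7569157.5), so that 1 count was worth 0.0874 to 0.257 CPM, the count scaled to a library total of 1000000. Replicates of a group are separate libraries, which the study describes as biological replicates. Of the members, 7 were detected in every library, Pvalb was at 0 counts in 11 of the 20 P2 libraries and in no older library, and Npy was at 0 in 4 libraries. All 9 members passed the filter on low counts.

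In all, 3 P2 libraries stood apart from their groups and bear on the members. The library labelled MEC LII P2 replicate 1 had almost none of some RNAs of cortical excitatory neurons. Slc17a7, the main vesicular glutamate transporter of cortex, was at 0.6 CPM there and at 277 to 358 CPM in MEC LII P2 replicates 2, 4 and 5. Neurod6, a transcription factor of cortical excitatory neurons, was at 0.4 CPM against 203 to 232 CPM. Slc17a6, another vesicular glutamate transporter, was at 18.6 CPM against 78.7 to 103 CPM. Camk2a, also an excitatory marker, went the other way, at 115 CPM against 76.4 to 95.6 CPM. The same library had 676 CPM of Gad1, and 135 CPM of Foxj1, a gene of ciliated cells that was at most 10.4 CPM in the other 61 libraries, so it goes against its label. MEC LII P2 replicate 3 had 450 CPM of Slc6a3, the dopamine transporter. Slc6a3 was also between 1.04 and 24.8 CPM in the other 3 P2 libraries numbered 3, and at most 0.534 CPM in the 14 remaining P2 libraries. MEC LDeep P2 replicate 1 had 286 CPM of Col1a1, a collagen of meningeal fibroblasts, against 0.693 to 2.93 CPM in the 4 other MEC LDeep P2 libraries. That level lay within the 180 to 339 CPM of MEC LII P2 replicates 2, 4 and 5. Whether this library holds the layer on its label was not tested. Foxj1 and Slc6a3 were chosen after their values were seen. The 6 excitatory markers of a list summed to between 767 and 3501 CPM in the other 61 libraries, and none of them was at 0 there. Many results are given with all 64 libraries and with these 3 set aside (61 libraries), a setting chosen after seeing the data. The values seen included that of Gad1, itself a member. Its results with 61 libraries are therefore not independent of this choice. Fits given once are for all 64 libraries unless stated.

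**Figure D1:**
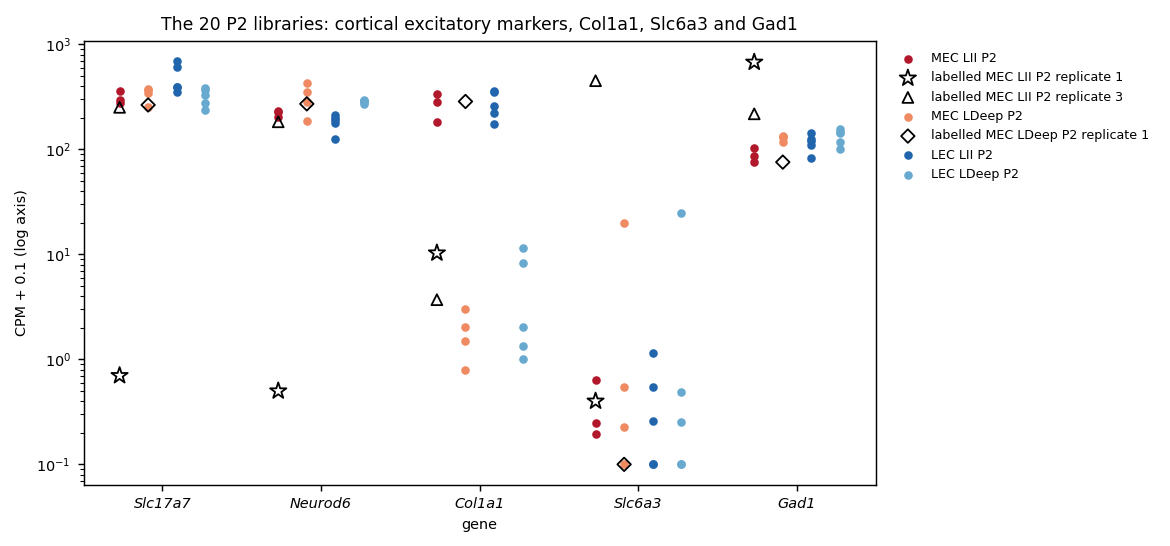
Levels of 5 genes in each of the 20 P2 libraries, as CPM plus 0.1 on a log axis, with colours for the groups and black symbols for the 3 libraries that stand apart. The library labelled MEC LII P2 replicate 1 (star) lies at 0.6 CPM of Slc17a7 and 676 CPM of Gad1, and MEC LII P2 replicate 3 (triangle) lies at 450 CPM of Slc6a3.

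Levels are given as CPM per library, or as group means of log2 CPM with a prior count of 2. Differences between groups are log2 fold changes (LFC) with their standard error (SE) from edgeR's quasi-likelihood fit over the 12521 genes that passed the filter, and a gene was called at a Benjamini-Hochberg adjusted p below 0.05. The fit treated libraries of the same age and replicate number as independent. If they share an animal, the SE and p of age differences averaged over regions and layers may be too small. The first comparison asked how the markers differed between younger (P2 and P9) and older (P23 and P45) rats, averaged over both regions and layers. Pvalb, Vip, Gad1 and Gad2 rose, Lhx6, Calb2 and Sst fell, and Slc32a1 and Npy were not called. Thus 7 of 9 members were called, where 81.5% of all genes tested were called, 41% as higher and 40.5% as lower in older rats, so the number of members called was near the background. With 61 libraries the members called numbered 7 as well, against 82.7% of genes.

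Gad1 was at 75.5 to 676 CPM (median 123) in the P2 libraries, 153 to 196 CPM (median 176) at P9, 212 to 316 CPM (median 237) at P23 and 212 to 313 CPM (median 256) at P45. Once the 3 P2 libraries were set aside, its highest value at P2 was 155 CPM, and the 33 younger libraries (75.5 to 196 CPM) did not overlap the 28 older ones (212 to 316 CPM). The LFC of Gad1 between ages was 0.64 (SE 0.11, adjusted p 4.2e-07), and 0.80 (SE 0.04) with 61 libraries. Gad2 went from a median of 47.1 CPM at P2 to 104 CPM at P9, 127 CPM at P23 and 124 CPM at P45. Its LFC was 0.70 (SE 0.12, adjusted p 9.8e-07), and 0.91 (SE 0.05) with 61 libraries. Slc32a1, the packaging gene, had medians of 41.7, 41.9, 45.9 and 45.1 CPM over the same ages, with an LFC of −0.04 (SE 0.12, adjusted p 0.77) and of 0.13 (SE 0.07) with 61 libraries. Both synthesis genes thus rose, while the packaging gene was called with neither set of libraries.

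In MEC LII the age difference of these 3 genes depended on whether the libraries that stood apart were included. Gad1 had an LFC of 0.48 (SE 0.22, adjusted p 0.044) there, Gad2 of 0.22 (SE 0.24) and Slc32a1 of −0.28 (SE 0.24). With 61 libraries the LFCs were 1.18 (SE 0.08), 1.10 (SE 0.10) and 0.46 (SE 0.14), all 3 called, so that Slc32a1 changed sign. Leaving out the library labelled MEC LII P2 replicate 1 alone gave 0.74 for Gad2, now called, and 0.10 for Slc32a1, and leaving out MEC LII P2 replicate 3 alone gave 0.43 for Gad1, no longer called. The call of Gad1 was also lost in most settings that left out 1 replicate number of an age. In MEC LDeep, LEC LII and LEC LDeep, the LFC of Gad1 was 0.78, 0.67 and 0.63 and that of Gad2 0.75, 1.05 and 0.80, all called. In MEC LII 5 members were called with all libraries and 7 with 61, against 66.4% and 66.6% of genes. In MEC LDeep 6 were called with all libraries and 7 with 61, against 66.2% and 67.9% of genes. In LEC LII 7 were called (62.7% of genes) and in LEC LDeep 6 (64.4%).

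Lhx6, which marks cells of the medial ganglionic eminence, fell with age in each of the 4 strata of region and layer. It was at 11.1 to 75.8 CPM (median 40.8) at P2, 11.4 to 38.1 CPM (median 19) at P9, 5.58 to 16.8 CPM (median 10.4) at P23 and 6.82 to 25.7 CPM (median 10.8) at P45. The lowest P2 value belonged to the library labelled MEC LII P2 replicate 1, and without the 3 libraries the P2 values started at 23.4 CPM. The LFC between older and younger rats was −1.47 (SE 0.10, adjusted p 8.3e-20), and it ranged over the strata from −1.66 (SE 0.20) in MEC LII to −1.22 (SE 0.19) in LEC LDeep. From P2 to P9 the LFC was −1.08 (SE 0.12), from P9 to P23 −0.996 (SE 0.15), and from P23 to P45 0.13 (SE 0.15), where it was not called.

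Pvalb, the calcium-binding protein of fast-spiking cells, had the largest age difference of the 9 members. At P2 it had 20 counts in the 20 libraries together, of which 11 came from the library labelled MEC LII P2 replicate 1 (6 counts) and MEC LII P2 replicate 3 (5 counts). No other P2 library had more than 2 counts, so at this age Pvalb was at or below the floor of 3 counts per library in 18 libraries. At P9 its level was 5.78, 9.99, 7.33 and 0.847 CPM in MEC LII replicates 1 to 4, and 1.33, 6.23, 5.15 and 0.823 CPM in MEC LDeep. In LEC it was 0.543, 2.48, 5.25 and 0.203 CPM in LII and 0.451, 1.41, 0.815 and 0.292 CPM in LDeep. Replicate 4 was the lowest in each of the 4 groups at this age, and the P9 libraries spanned 0.203 to 9.99 CPM. At P23 the range was 58.9 to 125 CPM (median 84.6) and at P45 26.1 to 143 CPM (median 101), with no overlap between the older and the younger libraries. Pooled over libraries, the P9 level was 23.7 times that at P2 (95% exact interval 15.1 to 39.1, counting error only), and 48.2 times (24.2 to 112) with the 3 libraries set aside, when P2 had 8 counts. From P9 to P23 the LFC was 5.05 (SE 0.26, adjusted p 1.8e-23), and from P23 to P45 it was −0.01 (SE 0.21). The fitted LFC between older and younger rats, 7.24 (SE 0.22), rests on the few P2 counts.

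Sst, the peptide of dendrite-targeting cells, was at 30.7 to 300.2 CPM (median 163) at P2 and 82.7 to 408 CPM (median 174) at P9. It was at 59.1 to 319 CPM (median 136) at P23 and 67.6 to 261 CPM (median 128) at P45. These ranges overlapped at all 4 ages. The LFC of Sst between ages was −0.26 (SE 0.11, adjusted p 0.028), and −0.28 (SE 0.08) with 61 libraries. With all libraries its call was lost without P2 replicate 3 (−0.22), P23 replicate 1 (−0.23) or 2 (−0.25), or P45 replicate 2 (−0.24) or 4 (−0.24). It was also lost with a correlation between libraries of the same replicate number (LFC −0.21, adjusted p 0.141) and with those libraries summed (LFC −0.27, adjusted p 0.062). Among the 4 strata it was called in LEC LII (LFC −0.53, SE 0.22), though not with the correlation (adjusted p 0.051), and, with 61 libraries, also in MEC LDeep (LFC −0.36, SE 0.16). Npy, at 0 to 1.6 CPM in younger and 0 to 2.25 CPM in older libraries, had an LFC of 0.07 (SE 0.26, adjusted p 0.82).

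Vip, the marker of interneurons that contact interneurons, rose. It was at 1.4 to 18 CPM (median 6.99) at P2, 12.1 to 27 CPM (median 22.4) at P9, 25.8 to 94.8 CPM (median 43.8) at P23 and 28 to 86.9 CPM (median 45.6) at P45. The LFC between ages was 1.93 (SE 0.10, adjusted p 5.3e-24) and lay between 1.74 and 2.12 in the 4 strata, in none of which the younger and older libraries overlapped. From P2 to P9 it was 1.55 (SE 0.14), from P9 to P23 1.11 (SE 0.15) and from P23 to P45 0.10 (SE 0.15).

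Calb2, which encodes calretinin, rose from P2 to P9 in the fit over all groups and then fell. In LDeep of MEC it was at 184, 177, 116, 81.9 and 132 CPM at P2, 355, 318, 449 and 349 CPM at P9, 72, 59.2 and 88.7 CPM at P23, and 35, 33.9, 23.6 and 24.4 CPM at P45. The 4 P9 libraries were above all others of this stratum. In LEC LDeep, too, the P9 libraries (293 to 393 CPM) lay above those of P2 (104 to 255 CPM). In LII both ages overlapped. MEC LII was at 38.3, 35.9, 202, 59.5 and 80.8 CPM at P2 and at 125, 85, 73.9 and 140 CPM at P9, and LEC LII at 45.7 to 104 CPM and 83 to 98.8 CPM. The P45 libraries of MEC LII were at 15.5, 21.3, 20.3 and 19.5 CPM. The LFC was 0.89 (SE 0.19, adjusted p 6.7e-05) from P2 to P9 and −1.72 (SE 0.23, adjusted p 6.1e-09) from P9 to P23. From P23 to P45 it was −0.65 (SE 0.23, adjusted p 0.097), which was called with 61 libraries (LFC −0.65, SE 0.20) and, without P45 replicate 2, was −1.04. In LEC, P45 replicate 2 had 98.1 CPM in LII and 139 CPM in LDeep, while the other 3 replicates lay between 22.5 and 55.1 CPM. At P2, replicate 3 was the highest in MEC LII (202 CPM), LEC LII (104 CPM) and LEC LDeep (255 CPM), and Slc6a3 was at least 1.04 CPM in each of these libraries. In MEC LDeep, replicate 3 had 20 CPM of Slc6a3, while its Calb2 (116 CPM) lay within the range of its group. Whether the levels of these 2 genes are linked was not tested.

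From P2 to P9, 5 members were called (63.3% of genes), and 6 with 61 libraries (64.9%), when Gad1 joined Calb2, Gad2, Lhx6, Pvalb and Vip. From P9 to P23, 5 were called (64.6% of genes), namely Gad1, Calb2, Lhx6, Pvalb and Vip, and 7 with 61 libraries (67.1%), with Gad2 and Sst in addition. The call of Gad1 (LFC 0.46, SE 0.16) was lost with libraries of the same replicate number summed (LFC 0.45, adjusted p 0.099). From P23 to P45, edgeR called 0 of 9 (3.83% of genes), with 1 (Calb2) at an unadjusted p below 0.05, DESeq2 called 0 and limma voom 1. With 61 libraries 1 was called, against 5.79% of genes. The DESeq2 and limma voom counts, here and in later comparisons, have no share of all genes beside them. They were not set against the background. The members thus changed mostly before P23, as did the genes in general. Markers of other cells moved with age in the 61 libraries. Of 6 excitatory markers 2 were called higher in older rats, Camk2a (LFC 2.15) and Slc17a7 (LFC 1.65), and 3 lower, with a median LFC of −0.0043, or −0.089 with 61 libraries. Their sum in the 61 libraries was 767 to 1643 CPM in younger and 1938 to 3501 CPM in older libraries. Astrocyte markers summed to 515 to 3684 and 2322 to 4976 CPM, oligodendrocyte markers to 34.1 to 685 and 639 to 15223 CPM, and 2 genes of dividing cells to 32.8 to 194 and 2.89 to 13.2 CPM. All 5 astrocyte and all 5 oligodendrocyte markers were called higher in older rats, and Mog and Mobp were at 0 in some younger libraries. The part of these cells in the age differences of the members was not tested.

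**Figure D2:**
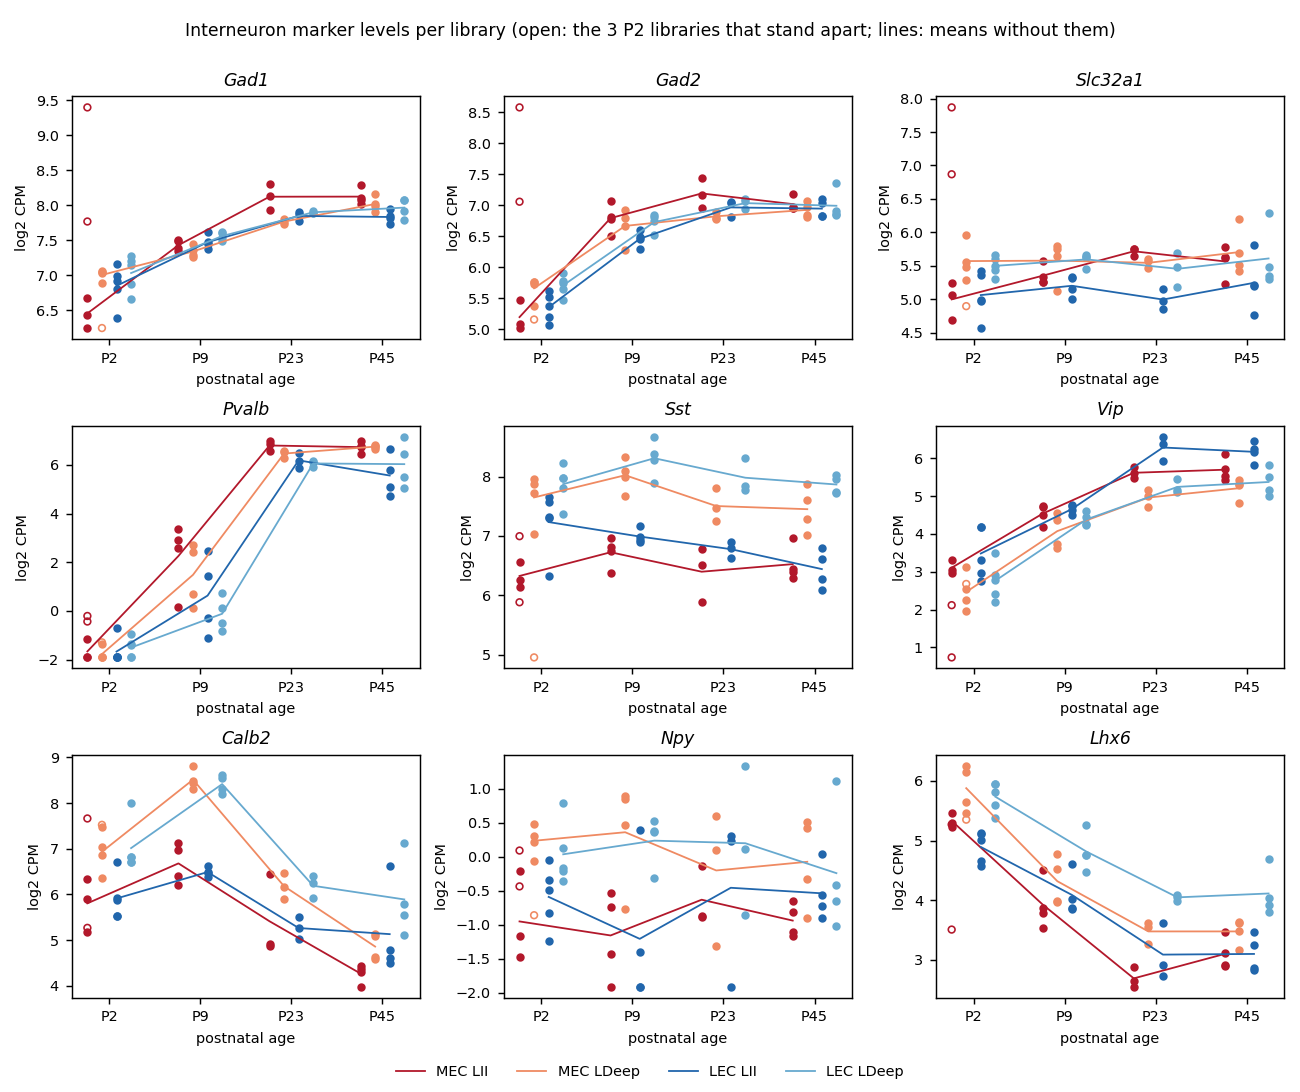
Log2 CPM (prior count 2) of the 9 members in each library by postnatal age, with colours for region and layer, open symbols for the 3 P2 libraries that stand apart, and lines through group means without them. Pvalb rises from at most 9.99 CPM at P9 to at least 58.9 CPM at P23, Calb2 peaks at P9 in LDeep, and Sst and Lhx6 lie higher in LDeep than in LII.

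The second comparison asked how LII differed from LDeep within each region, averaged over the 4 ages. In both regions Sst, Calb2, Lhx6 and Npy were higher in LDeep and Vip was higher in LII. In MEC 7 of 9 members were called, where 40.8% of genes were (21% higher and 19.8% lower in LII), and in LEC 5 of 9, where 38.6% were (17.3% higher and 21.2% lower). With 61 libraries these counts were 5 in MEC (44.3% of genes) and 7 in LEC (39% of genes).

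Sst was lower in LII with an LFC of −1.08 (SE 0.15, adjusted p 9.9e-08) in MEC and −1.14 (SE 0.15, adjusted p 2.4e-08) in LEC. At P9 it was at 107, 112, 82.7 and 124 CPM in MEC LII and at 274, 204, 253 and 323 CPM in MEC LDeep. At P9 in LEC it was at 119, 126, 143 and 122 CPM in LII and at 312, 408, 238 and 335 CPM in LDeep. At P45 it was at 78.1, 86.5, 125 and 84.1 CPM in MEC LII and at 196, 130, 236 and 156 CPM in MEC LDeep. From P9 on, the layers did not overlap in either region, which makes 6 of the 8 combinations of region and age. At P2 in MEC they overlapped through MEC LDeep P2 replicate 1, at 30.7 CPM, while the 4 other LDeep libraries (131 to 250 CPM) lay above every LII library. Sst was called between layers at each of the 4 ages, with LFCs of −0.80, −1.33, −1.15 and −1.18.

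Lhx6 was lower in LII with an LFC of −0.58 (SE 0.14, adjusted p 0.00055) in MEC and −0.88 (SE 0.14, adjusted p 4.9e-07) in LEC. At P2 in LEC it was at 24.9, 34.3, 23.4, 31.8 and 34.7 CPM in LII and at 47.8, 61.5, 41.1, 56.1 and 61.4 CPM in LDeep. At P23 it was at 5.58, 5.97 and 7.07 CPM in MEC LII and at 9.31, 11.5 and 12 CPM in MEC LDeep. The layers did not overlap in either case, nor in LEC at P23 and P45, which makes 4 of the 8 combinations. They overlapped in MEC at P2, P9 and P45 and in LEC at P9. Like Sst, Lhx6 was called at each of the 4 ages, with LFCs of −0.79, −0.57, −0.87 and −0.70. Npy, at its low counts, had LFCs of −1.41 (SE 0.38) in MEC and −1.01 (SE 0.37) in LEC, but its layers overlapped at each age in both regions with all libraries. With 61 libraries they did not overlap at P2 in MEC, where LII was at 0.0943 to 0.601 CPM and LDeep at 0.693 to 1.13 CPM.

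Calb2 was lower in LII with an LFC of −0.93 (SE 0.21, adjusted p 0.00035) in MEC and −1.17 (SE 0.21, adjusted p 1.1e-05) in LEC. The difference was largest at P9 (LFC −1.87, SE 0.29), where LEC LII was at 98.8, 83, 89.6 and 87.9 CPM and LEC LDeep at 372, 393, 316 and 293 CPM. It was also called at P2 (LFC −0.93), while at P23 (LFC −0.76, SE 0.34) and P45 (LFC −0.65, SE 0.30) it was not.

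Vip went the other way, with an LFC of 0.41 (SE 0.15, adjusted p 0.023) in MEC and 0.73 (SE 0.14, adjusted p 4.8e-05) in LEC. The value in MEC was 0.28 (adjusted p 0.107) with limma voom and quantile normalization, not called. At P23 it was at 54.7, 44 and 48.4 CPM in MEC LII and at 25.8, 32.1 and 35.7 CPM in MEC LDeep. At P23 in LEC it was at 82.4, 94.8 and 60.2 CPM in LII and at 43.6, 34.6 and 35.4 CPM in LDeep. The layers did not overlap at P23 in either region, nor at P45 in MEC, and overlapped in the other 5 combinations. It was called at P23 (LFC 0.86, SE 0.22) and P45 (LFC 0.64, SE 0.19), and at P2 only with 61 libraries, where the LFC was 0.69 (SE 0.19) in place of 0.43 (SE 0.21).

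Pvalb was called between layers at P9 alone, with an LFC of 1.26 (SE 0.44, adjusted p 0.025), and leaving out P9 replicate 3 or 1 gave 0.94 or 1.18, neither called. With limma voom and quantile normalization it was 0.56 (adjusted p 0.55), and with all P2 samples left out 1.29 (adjusted p 0.055), neither called. At P23 and P45, when Pvalb was abundant, its LFCs were 0.24 (SE 0.31) and −0.27 (SE 0.27).

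The genes of GABA synthesis and packaging depended on the libraries that stood apart. With all libraries Gad1 and Gad2 were higher in LII of MEC, with LFCs of 0.39 (SE 0.15, adjusted p 0.039) and 0.50 (SE 0.17, adjusted p 0.018). With 61 libraries these were 0.01 (SE 0.06) and 0.04 (SE 0.07) and neither was called. Leaving out the library labelled MEC LII P2 replicate 1 alone gave 0.16 and 0.25, neither called, and leaving out MEC LDeep P2 replicate 1 alone gave 0.35 for Gad1, not called; most settings that left out 1 replicate number of an age also lost this call, at values close to 0.39. With the replicate number as a block they were 0.31 (adjusted p 0.115) and 0.40 (adjusted p 0.055), neither called. At P2 in MEC LII, Gad1 was at 676, 75.5, 218, 86.3 and 102 CPM in replicates 1 to 5 and at 75.5, 118, 131, 131 and 133 CPM in LDeep. Replicates 1 and 3 of LII were thus above every LDeep library, and replicates 2, 4 and 5 were below LDeep replicates 2 to 5. The layer difference at P2 changed sign when the 3 libraries were set aside, from 0.40 to −0.35 (SE 0.08) for Gad1, from 0.53 to −0.39 (SE 0.09) for Gad2 and from 0.31 to −0.48 (SE 0.13) for Slc32a1. None of the 3 was called with all libraries and each was with 61. In LEC, none of whose libraries was set aside, Slc32a1 had an LFC of −0.41 (SE 0.17, adjusted p 0.055) with all libraries and −0.40 (SE 0.10) with 61, when it was called. The LFC of Gad2 in LEC was −0.18 (SE 0.18) and −0.17 (SE 0.07), called with 61, and that of Gad1 was −0.11 (SE 0.15) and −0.10 (SE 0.06), called in neither.

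By age, 3 members were called between layers at P2 (19.2% of genes). There were 5 at P9 (32.9%), while P23 had 3 (25.9%) and P45 had 3 (26.4%). With 61 libraries the count at P2 was 7, against 26.1% of genes. Markers of other cells moved with the layers. The 6 meningeal fibroblast markers summed to 182 to 1053 CPM in LII and 22 to 241 CPM in LDeep of the 61 libraries, and Col1a2, Lum and Aldh1a2 were at 0 in some LDeep libraries and in no LII library. Of the 6, 5 were called higher in LII in each region, and 1 was called lower in MEC. The 5 oligodendrocyte markers summed to 639 to 4531 CPM in LII and 2128 to 15223 CPM in LDeep at P23 and P45, and the 5 astrocyte markers to 3518 to 4976 CPM and 2322 to 3036 CPM. The 6 excitatory markers summed to 1938 to 2685 CPM in LII and 2268 to 3501 CPM in LDeep at these ages. The part of these cells in the layer differences of the members was not tested.

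**Figure D3:**
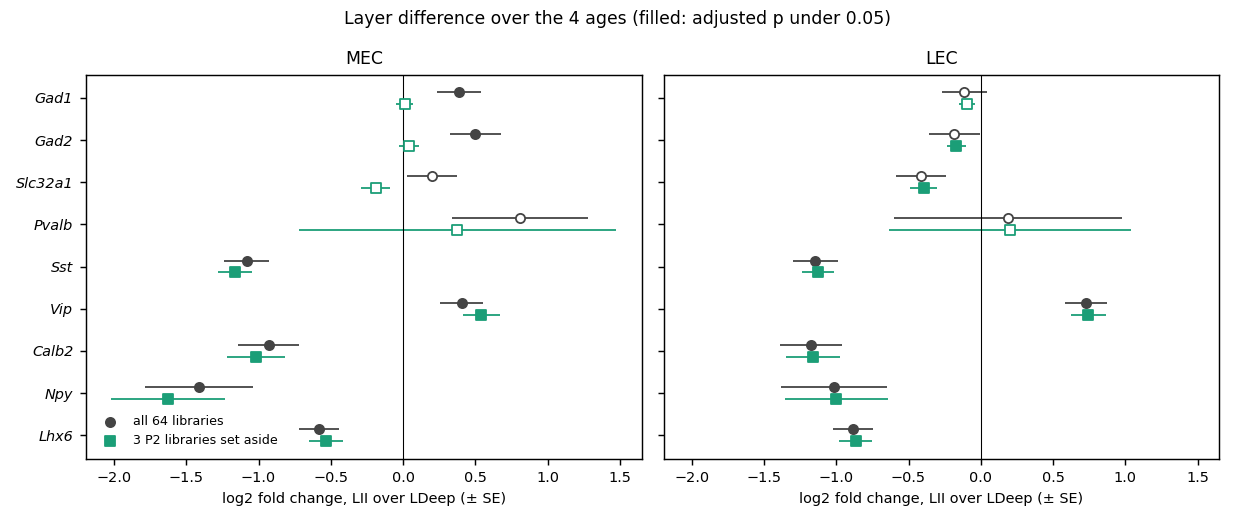
Log2 fold change of each member between LII and LDeep over the 4 ages in MEC and LEC, with bars of 1 SE, for all 64 libraries (circles) and with 3 P2 libraries set aside (squares); filled symbols were called. Sst, Calb2, Lhx6 and Npy lie below 0 and Vip above 0 in both regions, while Gad1 and Gad2 in MEC move to 0.01 and 0.04 without the 3 libraries.

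The third comparison set MEC against LEC within a layer. In LII, Vip was lower in MEC (LFC −0.57, SE 0.14, adjusted p 0.0042), and at P23 it was at 44 to 54.7 CPM in MEC and 60.2 to 94.8 CPM in LEC. At P45 the regions overlapped, with Vip at 43 to 69.6 CPM in MEC and 56.4 to 86.9 CPM in LEC. With 61 libraries its LFC was −0.46 (SE 0.12) and it was still called. Gad2 and Slc32a1 were higher in MEC LII with LFCs of 0.57 (SE 0.18, adjusted p 0.024) and 0.64 (SE 0.17, adjusted p 0.008), and with 61 libraries these were 0.11 (SE 0.07) and 0.27 (SE 0.10), neither called. Leaving out the library labelled MEC LII P2 replicate 1 alone gave 0.30 for Gad2, not called, and the replicate block 0.47 (adjusted p 0.059). Sst had an LFC of −0.35 (SE 0.15), and of −0.38 (SE 0.11) with 61 libraries, when it was called. In LII 3 members were called with all libraries (12.6% of genes) and 2 with 61 (13.1%). In LDeep edgeR called 0 of 9 (5.77% of genes), with 2 at an unadjusted p below 0.05, DESeq2 called 1 and limma voom 0. Those 2, Lhx6 (LFC −0.41, SE 0.13) and Sst (LFC −0.41, SE 0.15), were both called with 61 libraries (LFC −0.39 and −0.34), against 7.31% of genes, and with the replicate block (LFC −0.42 and −0.46). Pvalb at P23 was at 95.4 to 125 CPM in MEC LII and 58.9 to 90.7 CPM in LEC LII. At P45 Pvalb overlapped between the regions, at 87.8 to 125 CPM in MEC LII and 26.1 to 102 CPM in LEC LII. Its LFC in LII over all ages, 1.17 (SE 0.48, adjusted p 0.101), was not called, nor was that with 61 libraries, 0.60 (SE 1.19).

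Whether these differences themselves differed was tested by interaction terms. For the layer difference in MEC against LEC, edgeR called 0 members (1.24% of genes), and DESeq2 and limma voom called 0. In edgeR, 3 were at an unadjusted p below 0.05 (Gad1, Gad2 and Slc32a1). The LFCs of these 3 were 0.50 (SE 0.22), 0.68 (SE 0.25) and 0.61 (SE 0.24). With 61 libraries they were 0.11 (SE 0.08), 0.21 (SE 0.10) and 0.21 (SE 0.14), none called. For the layer difference in older against younger rats, 0 were called (8.79% of genes), with 1 at an unadjusted p below 0.05 (Calb2), and DESeq2 and limma voom called 0. With 61 libraries 3 were called (12.3% of genes), namely Calb2 (LFC 0.78, SE 0.27), Gad2 (LFC 0.32, SE 0.10) and Gad1 (LFC 0.25, SE 0.08), each positive. The corresponding values with all libraries were 0.69 (SE 0.30), −0.14 (SE 0.25) and −0.13 (SE 0.22), and that of Calb2 was called with the replicate block (0.72, adjusted p 0.049). With the library labelled MEC LII P2 replicate 1 and all P2 replicate 3 libraries set aside instead, Gad2 (0.28, adjusted p 0.069) and Gad1 (0.19, adjusted p 0.228) were not called. For the region difference in older against younger rats, 0 were called (4.34% of genes), with 1 at an unadjusted p below 0.05 (Calb2), and DESeq2 and limma voom called 0. With 61 libraries 1 was called (6.32% of genes), namely Gad1 (LFC 0.30, SE 0.08, against −0.02 with all libraries). The larger layer difference of Vip in LEC than in MEC was not called (LFC of the difference −0.32, SE 0.21, adjusted p 0.55).

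To describe each subtype marker per unit of general GABAergic RNA, the mean log2 CPM of Gad1, Gad2 and Slc32a1 was subtracted from its log2 CPM in the same library. No test was made, since the members enter both terms, and MEC P2 values are given for 61 libraries. Pvalb went from −7.21 ± 0.62 (SD, n = 3) at P2 to −4.27 ± 1.397 (n = 4) at P9, −0.21 ± 0.05 (n = 3) at P23 and −0.17 ± 0.15 (n = 4) at P45 in MEC LII. These values compare ages and strata and not genes, since CPM does not account for gene length, and with Gad1 and Gad2 alone as the reference the P23 value was −0.86 ± 0.05. In LEC LDeep Pvalb reached −0.73 ± 0.09 (n = 3) at P23 and −0.82 ± 1.13 (n = 4) at P45. Sst went from 0.78 ± 0.30 to −0.38 ± 0.30 between P2 and P45 in MEC LII and from 1.795 ± 0.16 (n = 5) to 1.012 ± 0.39 (n = 4) in LEC LDeep. Vip went from −2.27 ± 0.79 (n = 5) to −0.50 ± 0.44 (n = 4) in LEC LII and from −3.31 ± 0.53 to −1.48 ± 0.61 in LEC LDeep. Lhx6 went from −0.22 ± 0.10 to −3.80 ± 0.31 in MEC LII. Calb2 in MEC LDeep was at 0.86 ± 0.62 at P2 and 1.98 ± 0.30 at P9, and then at −0.53 ± 0.32 (P23) and −2.02 ± 0.42 (P45). On this scale Sst, Calb2 and Lhx6 declined and Pvalb and Vip increased from P2 to P45 in each stratum.

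**Figure D4:**
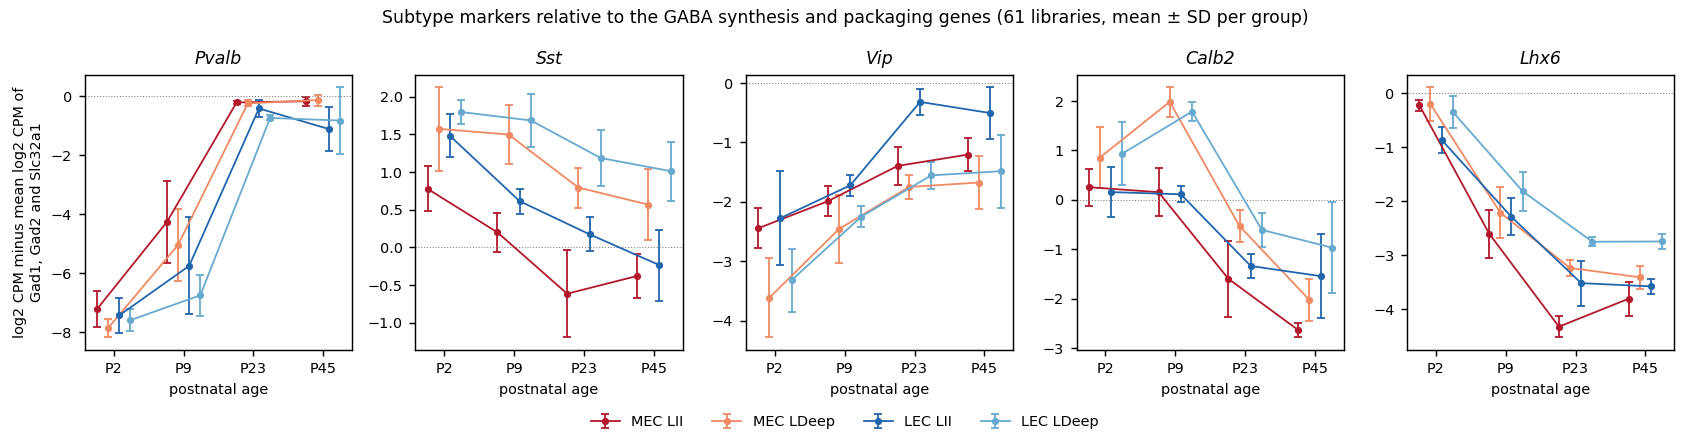
Log2 CPM of 5 markers minus the mean log2 CPM of Gad1, Gad2 and Slc32a1, by postnatal age, as mean ± SD over the replicates of each group (61 libraries). Pvalb reaches −0.21 ± 0.05 in MEC LII at P23, Sst stays highest in LEC LDeep, and Vip is highest in LEC LII at each age.

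Between genes, levels were compared as CPM per kb of counted exon length, averaged over the 4 groups of an age with 61 libraries; Npy was left out because of its uncounted pairs. Sst was the highest of the 8 at each age, at 302 per kb at P2 and then 363 at P9, 282 at P23 and, at the oldest age, 263. Calb2 was the second at P2 (67.2) and P9 (158) and the fifth and sixth at P23 (40.7) and P45 (27.8). Pvalb was the lowest at P2 (0.12) and P9 (5.69) and the second at P23 (159) and P45 (161). Gad1 was the third at each age, from 36.3 at P2 to 79.6 at P45, followed by Gad2, from 23 to 64.1. Lhx6 was the lowest at P23 (3.08) and P45 (3.33). Some neighbours in these orders differed by less than their SD over libraries, such as Slc32a1 (16.7 ± 4.00) and Lhx6 (13.5 ± 4.45) at P2, Gad1 (54.7 ± 4.18) and Gad2 (52 ± 8.05) and likewise Lhx6 (5.96 ± 2.11) and Pvalb (5.69 ± 5.74) at P9, and Calb2 (40.7 ± 16.1) and Vip (32.9 ± 13.9) at P23.

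**Figure D5:**
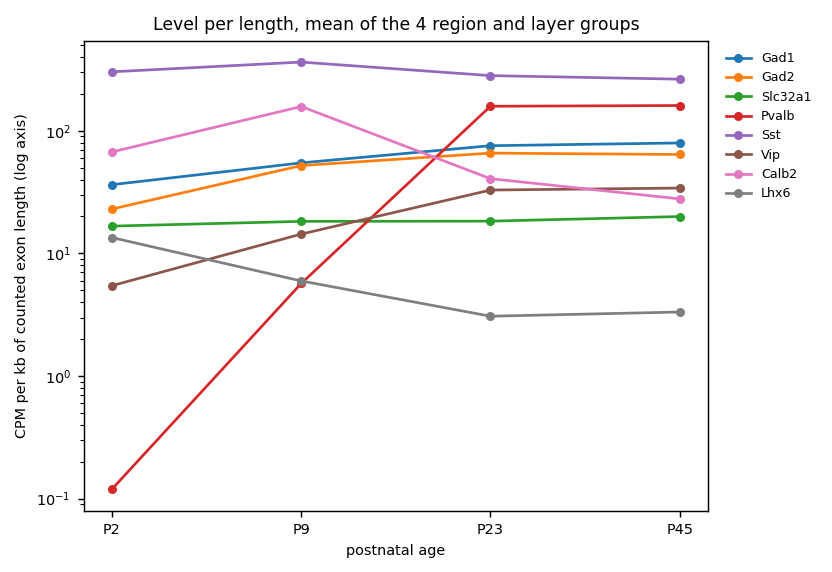
CPM per kb of counted exon length of 8 members on a log axis by postnatal age, as the mean of the 4 region and layer groups (61 libraries). Sst is the highest at each age, and Pvalb moves from 0.12 at P2 to 159 at P23.

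Other genes of interneurons were counted from lists chosen with earlier results of these data known. Of 15 tested transcription factors of interneuron development, 14 were lower and 1 was higher in older rats, with a median LFC of −1.02 against 0.01 over all genes. The 2 largest falls were those of Sp8 (LFC −1.90, SE 0.30), a factor of caudal ganglionic eminence cells, and Dlx2 (LFC −1.89, SE 0.17), which acts early in all these lineages, and the one rise was that of Satb1 (LFC 0.60, SE 0.10), which acts in maturing somatostatin cells. Of 16 genes tied to fast-spiking properties, 15 were higher and 1 was lower, with a median LFC of 1.64. Hapln4, a link protein of perineuronal nets, went from a mean of 0.884 CPM in younger to 102 CPM in older libraries (LFC 6.55, SE 0.14), and Erbb4, a neuregulin receptor, fell (LFC −0.64, SE 0.07). Both lists gave these counts with 61 libraries too.

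Of 22 tested further subtype markers, 11 were higher and 3 lower with age (median LFC 0.25), where 41% of all genes were higher and 40.5% lower. With all libraries the share called was below the 81.5% of all genes in this list and in the GABA list that follows, and near it in the receptor list. Lamp5, a marker of neurogliaform cells, rose most (LFC 3.65, SE 0.16), and Chat, the acetylcholine synthesis enzyme, had an LFC of 3.21 (SE 0.26) at means of 0.18 and 1.38 CPM. Chodl, a marker of long-range somatostatin cells, fell (LFC −2.91, SE 0.20), as did Elfn1 (LFC −0.33, SE 0.10), a synaptic protein of somatostatin cells. Of 8 genes of GABA uptake, breakdown and anchoring, 5 were higher and 1 lower (median LFC 0.44). These included Abat, the GABA transaminase (LFC 1.57, SE 0.11), and Slc6a11, a glial GABA transporter, which fell (LFC −0.32, SE 0.11). Of 10 tested receptors of the member peptides, 6 were higher and 2 lower (median LFC 0.63). Vipr1 and Sstr3 rose (LFC 3.00, SE 0.10, and 2.35, SE 0.07), and Npy2r and Sstr1 fell (LFC −1.11, SE 0.15, and −0.46, SE 0.10). With 61 libraries the counts were 12 and 3 for the subtype markers, 6 and 1 for the GABA genes, and 6 and 2 for the receptors. Against 82.7% of all genes, the share called was then below the background for the subtype markers. It was near the background for the GABA genes and the receptors.

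Between layers, the counts of each list stand against 21% of all genes higher and 19.8% lower in LII of MEC, and 17.3% and 21.2% in LEC. In all, 1 of the 10 receptors was higher and 5 were lower in LII of MEC (median LFC −0.29, against −0.03 over all genes), and 0 and 4 in LEC (median LFC −0.20, against −0.06). Sstr2 had the largest LFC of the list in both regions, −1.88 (SE 0.13) in MEC and −2.28 (SE 0.13) in LEC, followed by Sstr4 in MEC (LFC −1.04, SE 0.11) and Sstr3 in LEC (LFC −0.71, SE 0.10). Npy1r was higher in MEC LII (LFC 0.46, SE 0.11). With 61 libraries 1 was higher and 4 were lower in LEC, and the counts in MEC were as with all libraries.

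Of the 22 subtype markers, 9 were higher and 5 lower in MEC LII (7 and 5 with 61 libraries), and 5 and 5 in LEC LII. Reln, which also marks layer II excitatory cells of this cortex, was higher in LII (LFC 1.58, SE 0.19, in MEC and 1.39, SE 0.19, in LEC), and Tac1 was lower (LFC −1.13, SE 0.25, and −1.03, SE 0.24). Cck was lower in MEC LII (LFC −1.36, SE 0.16) and Crhbp in LEC LII (LFC −1.22, SE 0.18), while Penk was higher in LEC LII (LFC 0.71, SE 0.15). Chat was higher in MEC LII with all libraries (LFC 1.63, SE 0.41) and not called with 61 (LFC 1.11). Of the 15 transcription factors, 3 were higher and 2 lower in MEC LII and 1 and 5 in LEC LII, and 3 and 3, and 2 and 8, with 61 libraries. With all libraries the share called was near the background in LEC and below it in MEC. With 61 libraries it was above the background of 39% in LEC, none of whose libraries was set aside, and near that of 44.3% in MEC. Maf was higher in LII of both regions (LFC 0.66, SE 0.13, and 0.44, SE 0.13), Adarb2, a marker of caudal ganglionic eminence cells, was higher in MEC LII (LFC 0.50, SE 0.12), and Nr2f1 was lower in MEC LII (LFC −0.45, SE 0.17).

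Of the 16 fast-spiking genes, 6 were higher and 1 lower in MEC LII, but 2 and 1 with 61 libraries, and 1 and 3 in LEC LII. With 61 libraries, the share called was below the background in both regions. Scn4b was higher in LII (LFC 1.78, SE 0.31, in MEC and 2.405, SE 0.36, in LEC), Kcnc2, a potassium channel of fast-spiking cells, was lower (LFC −0.55, SE 0.08, and −0.71, SE 0.08), and Kcnab1 was lower in LEC LII (LFC −0.43, SE 0.09). Hapln1 was higher in MEC LII with all libraries (LFC 1.10, SE 0.28) and not called with 61 (LFC 0.40). Of the 8 GABA genes, 4 were higher and 1 lower in MEC LII (3 and 2 with 61 libraries) and 1 and 3 in LEC LII. The largest was Slc6a13, a GABA transporter of the meninges and other barrier tissues, at an LFC of 2.99 (SE 0.43) in MEC and 4.73 (SE 0.49) in LEC, which moved with the meningeal markers given above. Slc6a11 was higher in MEC LII (LFC 0.49, SE 0.16) and not called with 61 libraries (LFC 0.31), and Slc38a1 and Gphn were lower in LEC LII (LFC −0.31, SE 0.09, and −0.19, SE 0.06).

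The 3 genes most like each member were found by Pearson's r over the 16 group means of log2 CPM of all 64 libraries. They were taken from 11889 other genes with a mean of at least 1 CPM. These are descriptions over groups that share age, and no p is given. Pvalb was most like Dlg1 (r = 0.995), Kcng4 (0.993) and Cntnap1 (0.992). Vip was most like Anxa3 (0.992), Gzmm (0.982) and Ehd4 (0.979), and Lhx6 most like Grip2 (0.977), B4galnt4 (0.976) and Tmem206 (0.976). Gad1 was most like Gpc5 (0.973), Tmem255a (0.971) and Adarb1 (0.969), and Gad2 most like Aplp2 (0.974), Fads6 (0.967) and Purb (0.964). The likeness was lower for Calb2, with Ubxn2b (0.940), Mettl3 (0.925) and Col9a1 (0.922), for Sst, with Ncam2 (0.908), Yars (0.907) and Itfg1 (0.898), and for Npy, with Myh1 (0.902), Sema3c (0.891) and Fbxo7 (0.890). Slc32a1, with little change between groups, was most like Camta1 (0.836), Zfp597 (0.784) and Crk (0.771). Among the members, Gad1 and Gad2 were alike over the 16 groups (r = 0.94), whereas Sst was closest to Npy (r = 0.78). After subtraction of the group means, r over libraries was 0.58 between Gad1 and Gad2 and 0.53 between Sst and Npy with 61 libraries, and 0.94 and 0.46 with 64.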

How the data were processed

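Ribosomal RNA-depleted total RNA was sequenced in 64 libraries of 16 groups. The counts used here were deposited by the authors as 1 raw count per gene and library, with no normalization. Per the labels and methods, reads were demultiplexed with bcl2fastq 1.8.4, trimmed with Trimmomatic 0.33 and aligned to Rn6 with STAR 2.4.0, and read pairs over exons of RefSeq genes were counted by strand with featureCounts of Subread 1.4.6-p1. Pairs that aligned to several places were left out, which lowers genes with a near-identical copy such as Npy.

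Groups came from the labels. The counts were analysed in R 4.3.3 with edgeR 4.0.16 (TMM scaling, filterByExpr on the 16 groups, robust quasi-likelihood F-test), in 1 fit over all 64 libraries, and p-values were adjusted over the 12521 genes tested. A contrast averaged the group coefficients with equal weight. Alternatives used DESeq2 1.42.0, limma 3.58.1 voom with quantile normalization, other scalings and filters, separate fits of a region, blocks and left-out replicates. Setting aside 3 P2 libraries, 1 by 1 or together, was chosen after seeing the data and left 12487 genes tested. The scripts were tested on simulated data. Library totals ranged from 3894334 to 11439143 counts, and intervals cover counting error only.

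The members and gene lists were chosen with earlier results of these data known. All 9 members are named, together with the 3 genes most like each and, from each list, the 2 genes with the largest fold change called in each direction. Dlx6 and Ndnf, both on the lists, had no row under these names, and some genes that this rule names are not reported here.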

Additional observations from a re-analysis of the deposited data

Results flagged for a closer look

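Within groups of 4 or 5 libraries, the highest or lowest library was compared with the others by Dixon's gap test for each member. Of 108 such tests 9 were past the 95% critical value, where chance gives about 1 in 20. Each value is a log2 CPM, as in the report. At P2, Gad1 in MEC LDeep replicate 1 was the lowest at 6.24 (others 6.88 to 7.06) and Lhx6 in the library labelled MEC LII replicate 1 the lowest at 3.51 (others 5.22 to 5.47), and both libraries are among the 3 that stand apart. Calb2 in LEC LDeep P2 replicate 3 was the highest at 7.99 (others 6.71 to 6.83). Slc6a3 was at 24.8 CPM in this library, and a link between the 2 was not tested. Calb2 in LEC LII P45 replicate 2 was the highest at 6.62 (others 4.51 to 4.79).

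Sst in LEC LII P2 replicate 1 was the lowest at 6.32 (others 7.30 to 7.66). Slc32a1 in LEC LDeep P9 replicate 2 was the lowest at 5.46 (others 5.63 to 5.66). Gad2 was the highest in replicate 4 of MEC LII P45, at 7.18 (others 6.96 to 6.97), and of LEC LDeep P45, at 7.36 (others 6.84 to 6.91). Pvalb in LEC LII P2 replicate 3 was the highest at −0.71, which stands for 2 counts where the other 4 libraries had 0.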

How the results depend on the processing

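Of 2499 fold changes of members under the alternatives, 2300 kept their direction and their side of the threshold, 92 lost a call, 73 gained one and 34 changed sign. Of 528 counts of members called, 499 stayed within 1.5 times the value reported. With the 3 P2 libraries set aside, the count became 7 between layers at P2, 2 for region in LDeep, 1 from P23 to P45, 3 for layer by age and 1 for region by age. With the library labelled MEC LII P2 replicate 1 and all P2 replicate 3 libraries set aside, it became 6 between layers at P2, and 1 for each of region in LII, region in LDeep, P45 against P23, layer by age and region by age. It was 1 from P23 to P45 with limma voom or without all P2 samples, 4 between layers of MEC in a fit of the MEC samples alone, 3 between layers at P9 with at least 10 counts in every sample, and 1 for region in LDeep with DESeq2 or that filter. Leaving out replicates gave 0 to 1 from P23 to P45, 3 to 5 between layers at P9, 0 to 2 for region in LDeep and 0 to 1 for layer by age. Apart from the setting with the 3 libraries set aside, these counts have no share of all genes beside them. The same holds for the DESeq2 and limma voom counts above. Such counts were not set against the background.

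The sign changes concerned Gad1, Gad2 and Slc32a1. With the 3 libraries set aside, and with the library labelled MEC LII P2 replicate 1 and all P2 replicate 3 libraries set aside, the layer difference at P2 was −0.35 and −0.28 for Gad1, −0.39 and −0.35 for Gad2, and −0.48 and −0.40 for Slc32a1. The age difference of Slc32a1 in MEC LII was 0.46 and 0.44. Layer by age was 0.25 and 0.19 for Gad1 and 0.32 and 0.28 for Gad2, and region by age was 0.30 and 0.36 for Gad1. With limma voom, layer by age was 0.0095 for Gad1 and 0.043 for Gad2, and region by age 0.11 for Gad1. Leaving out replicates gave −0.065 to 0.54 (Gad1) between layers at P2, −0.23 to 0.10 (Gad1) and −0.27 to 0.12 (Gad2) for layer by age, and −0.083 to 0.22 (Gad1) for region by age. For Slc32a1 it gave −0.42 to 0.096 for the age difference in MEC LII and −0.059 to 0.46 for the layer difference at P2. The cause was not tested beyond the libraries named.

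In the study, equal numbers mark LII and LDeep samples of 1 animal for the miRNA samples of MEC, and for these libraries no source used here says so. Of 96 same-number pairs 57 correlated above 0.1 after subtraction of group means (mean r 0.142, against −0.0454 for different numbers), and 41 of 64 libraries correlated best with their own number. With a replicate block the count was 5 between layers in MEC, 5 in LEC, 4 at P23 and 4 at P45, 2 for region in LDeep and 1 for layer by age, and region by age was 0.040 for Gad1. Age lies between numbers, so the block there was a correlation between libraries (duplicateCorrelation, consensus 0.123), with 6 members called over all strata, without Sst. No share of all genes is given for these block settings, so their counts were not set against the background.

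Single replicate numbers decided further calls. The layer difference of Npy in LEC was not called without P2, P9, P23 or P45 replicate 1, P9 replicate 2 or P23 replicate 3 (−0.93 to −0.85) and was −1.66 without P9 replicate 3. Nor was that of Vip in MEC called without P2 replicate 4 or 5, P23 replicate 1, or P45 replicate 3 or 4 (0.33 to 0.37). The same held between layers for Calb2 at P2 without P2 replicate 1 or 2 (−0.75 and −0.80), Lhx6 at P9 without P9 replicate 1 or 2 (−0.53 and −0.55) and at P23 without P23 replicate 2 (−0.75), and Vip at P45 without P45 replicate 3 or 4 (0.57 and 0.49). It held for Gad1 from P9 to P23 without P23 replicate 2 (0.41). With Gad1 and Gad2 alone as the reference, 53 of 80 relative levels moved by more than 1 SD, and with a prior count of 0.5, 10 of 144 levels did. Depth limits Pvalb at P2 and Npy throughout.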
